A study of Drosophila melanogaster with 4 samples.

Results

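Subperineurial glia form the sealing layer of the blood-brain barrier of *Drosophila melanogaster*. They were picked out here from single nucleus RNA sequencing of whole brains as nuclei with at least 2 unique molecular identifiers (UMIs, counted RNA molecules) summed over *Mdr65* and *moody*, at least 1 of them *Mdr65*. A nucleus also needed at least 1 UMI over the glial genes *repo*, *loco* and *nrv2*, and no UMI of the perineurial gene *pippin*. This rule was met by 500 of 69415 nuclei. There were 4 libraries, each from 10 pooled, flash-frozen brains of adult flies of the laboratory strain Canton S (B): females and males kept for 6 days on control medium, and females and males kept for 6 days on medium with 250 µM NaAsO2 (sodium arsenite). Of the members, 114 came from the female control library, 115 from the female NaAsO2 library, 173 from the male control library and 98 from the male NaAsO2 library. Wherever 4 values are listed below, they are in this order. With 1 library per sex and treatment there was no replicate, so no p-value was computed. Intervals are 95% and cover counting error only, not differences between nuclei, flies or libraries.

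The fly barrier is built by glia alone. Perineurial glia face the hemolymph (the fly's blood), and beneath them the large, flat subperineurial cells seal the brain with pleated septate junctions between neighbouring cells. The G protein-coupled receptor Moody organises these junctions, while Mdr65, an ATP-binding cassette (ABC) transporter related to human P-glycoprotein, pumps foreign compounds out. The layer also carries sugars, lipids and hormones into the brain, and its gap junctions couple the cells to each other.

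The libraries held 19188, 25332, 14895 and 10000 nuclei, and the male NaAsO2 library had no nucleus under 1766 UMIs, whereas the others went down to 500. Median UMIs per member were 3498, 3334, 3204 and 5552.5. In each library a few members were far deeper than the rest: 7, 3, 9 and 7 members had over 20000 UMIs, up to 205372 in 1 droplet, and they held 53.1%, 19.4%, 38.6% and 50.3% of all UMIs of the members. These deep droplets carried 6845, 1655, 6236 and 8074 CPM of 4 neuronal genes (*elav*, *nSyb*, *brp*, *Syt1*), and neurons carried 7622, 7082, 6334 and 7344 CPM. CPM scales a gene's UMIs to the total UMIs of the class of nuclei named, not to the total of the library. Members of up to 20000 UMIs still carried 4786, 3124, 4199 and 4352 CPM of the 4 neuronal genes. At least 2 neuronal UMIs were found in 105, 101, 162 and 97 members, and only 9, 14, 11 and 1 members were left without them, too few for ratios. Doublets were not removed. Between 45 and 135 barcodes were shared by any pair of libraries, 0.45% to 0.75% of the smaller, and no member barcode was shared. Because deep droplets weigh heavily in sums, many genes are given over all members and, beside it, over marker-rich members. These are the 84, 97, 141 and 51 members (73.7%, 84.3%, 81.5% and 52.0%) in which at least 1% of UMIs came from 34 genes that the study lists as subperineurial markers.

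The genes of the rule are given as description, since they chose the members. *Mdr65* (Dmel_CG10181, 3L:6240500-6245746, genome release 6) stood at 750, 1928, 967 and 473 CPM, with 3, 5, 3 and 3 UMIs in the median member and up to 101 in a single one. *moody* (Dmel_CG4322, X:2044292-2050120), the receptor, stood at 181, 488, 307 and 195 CPM and had a UMI in 57.9%, 68.7%, 74.0% and 68.4% of members. In marker-rich members the *moody* level was 439, 568, 557 and 538 CPM. *repo*, the transcription factor of nearly all glia, had a UMI in 48.2%, 60%, 43.9% and 54.1% of members.

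The label was checked with 4 genes that the rule did not use and that the study lists for both of its subperineurial clusters: *Idgf4*, a secreted chitinase-like growth factor, *CG10702*, *ltl*, a secreted leucine-rich repeat protein, and *CG10226*, an ABC transporter gene that lies directly beside *Mdr65* (3L:6234323-6240068). The study chose them on these libraries, so they are not independent of the data. At least 2 UMIs of the 4 genes were found in 88.6%, 89.6%, 93.1% and 78.6% of members. The same held for 4.15%, 4.11%, 2.90% and 8.03% of other glia and for 2.05%, 1.03%, 1.74% and 2.57% of neurons, which had lower median depth (1705.5 to 3339 UMIs in other glia, 1349 to 2521 in neurons). With nuclei thinned to 1000 UMIs, which leaves out shallower ones (12, 13, 13 and 0 members and 238, 369, 241 and 0 other glia), at least 1 UMI of the 4 genes was found in 78.4%, 89.2%, 83.8% and 66.3% of members, against 5.10% to 8.39% of other glia and 4.36% to 5.24% of neurons. Perineurial nuclei, taken by *pippin* and *Tret1-1*, lay between, at 44.2%, 32.7%, 44.2% and 30.6% after thinning. The members thus carried subperineurial markers far above the level in other glia, and the male NaAsO2 members did so least often.

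**Figure D1:**
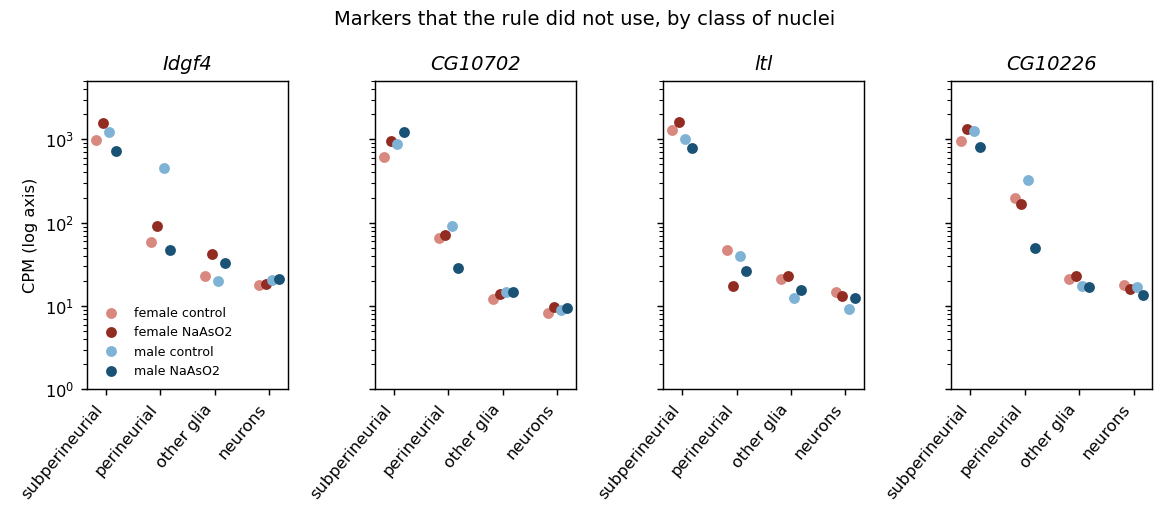
Levels in CPM (log axis) of *Idgf4*, *CG10702*, *ltl* and *CG10226* in subperineurial nuclei of up to 20000 UMIs, perineurial nuclei, other glia and neurons, 1 point per library. In each panel the 4 subperineurial points lie above the points of the other classes of the same library.

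At the edge of the rule, nuclei just inside it, with exactly 2 UMIs over *Mdr65* and *moody*, held at least 2 UMIs of the 4 marker genes in 66.7%, 66.7%, 72.5% and 45.9% of cases. Nuclei just outside it, with 1 UMI of *Mdr65* and none of *moody*, did so in 14.3%, 25.4%, 38.1% and 28.9%. All members with at least 5 UMIs of *Mdr65* did so (36, 59, 69 and 30 nuclei). The condition on *pippin* set aside 119, 71, 42 and 16 nuclei, of which 86.6%, 84.5%, 88.1% and 93.8% held at least 2 UMIs of the 4 genes. They were not counted as members.

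Members were 0.594% (0.490 to 0.713) of nuclei in control females and 0.454% (0.375 to 0.545) in NaAsO2 females, intervals that overlap. In males they were 1.16% (0.996 to 1.35) in the control library and 0.980% (0.796 to 1.19) after NaAsO2, which also overlap. Per dissected brain this was 11.4, 11.5, 17.3 and 9.8 nuclei. Among nuclei of at least 1766 UMIs, the lowest depth in the male NaAsO2 library, members numbered 95, 86, 133 and 98. Whether shallower members of that library, which holds exactly 10000 nuclei, had been left out of it was not tested. The rule needs UMIs, so the share moves with depth, and the order of the libraries changed when depth was matched. With nuclei thinned to 1000 UMIs, and the 1718, 7013, 2417 and 0 shallower nuclei left out, 0.258% (0.188 to 0.345), 0.267% (0.198 to 0.353), 0.537% (0.416 to 0.681) and 0.200% (0.122 to 0.309) of the 17470, 18319, 12478 and 10000 others met the rule. At equal depth the 2 female libraries overlapped, while the male NaAsO2 library lay below the male control library. With at least 1766 UMIs the shares were 0.744%, 1.03%, 1.70% and 0.980%, and marker-rich members were 0.438%, 0.383%, 0.947% and 0.510% of all nuclei. The male control library was the highest in each of these counts and the male NaAsO2 library was below it in each. With the *pippin* condition dropped, the female intervals did not overlap (1.06 to 1.38 in controls, 0.633 to 0.847 after NaAsO2), while the male ones did. Fewer such nuclei and less marker RNA per nucleus cannot be told apart here.

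**Figure D2:**
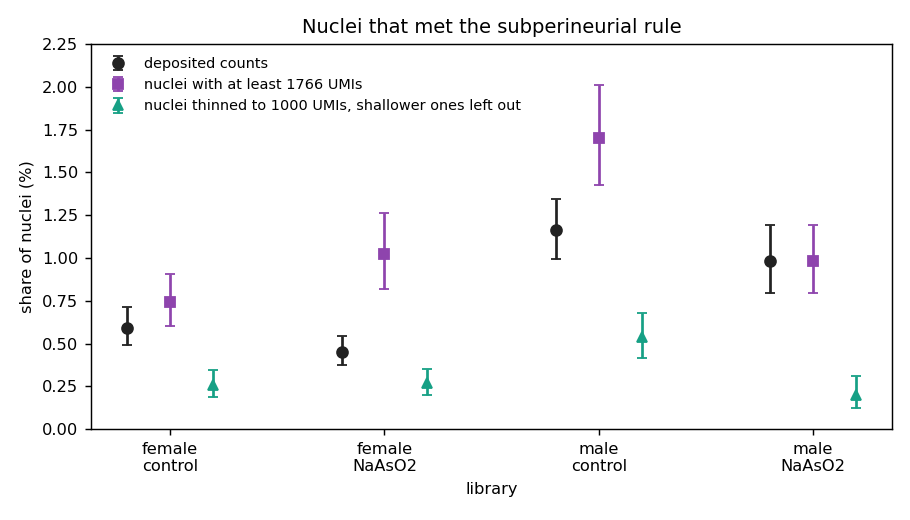
Share of nuclei (%) that met the subperineurial rule in each library, with exact binomial 95% intervals: on the deposited counts, among nuclei of at least 1766 UMIs, and with nuclei thinned to 1000 UMIs, shallower ones left out. Thinned, the male NaAsO2 share was 0.200% and the male control share 0.537%, with intervals that do not overlap.

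Across 5167 genes with enough UMIs, 163 (3.15%) were at least 2-fold higher in members than in other glia in 4 of 4 libraries, with counting intervals clear of 0, and 76 (1.47%) were at least 2-fold lower. The highest by the named-gene rule, beside 3 of the 4 marker genes above, were *rost* (*rolling stone*, a membrane protein known from myoblast fusion) and *Sdr*, a secreted decoy that binds insulin-like peptides. *rost* was at 91.2, 289, 348 and 218 CPM against 1.53, 2.27, 2.43 and 5.66 CPM in other glia, and *Sdr* at 248, 591, 416 and 184 CPM against 6.00, 7.05, 8.38 and 6.95 CPM. The lowest were *axo* (205, 213, 183 and 127 CPM against 1012, 1165, 1438 and 658 CPM), a gene that marks ensheathing glia here, *CG6040*, *CG40470*, the myosuppressin gene *Ms* and *stumps*, an adaptor of FGF receptor signalling. Of the lists of barrier genes, 6 of 15 ABC transporters with enough UMIs and 2 of 20 septate junction genes were higher in 4 of 4 libraries, with 1 ABC transporter lower, while no gene of the moody signalling list (11 with enough UMIs) was. *Gli* (*gliotactin*), a protein of the corners where 3 cells meet, was such a septate junction gene, at 95.3, 259, 59.6 and 84.7 CPM against 4.60, 9.07, 8.92 and 5.92 CPM in other glia. *Ncc69*, a sodium, potassium and chloride cotransporter, was at 330, 847, 428 and 463 CPM against 66.5, 65.2, 93.8 and 40.4 CPM. *Sdr*, *Ncc69* and *CG10226*, the last counted among the ABC transporters, are subperineurial markers that the study chose on these libraries. Their excess over other glia is therefore not independent of the data. Of the marker lists of other glia, 3 of 6 astrocyte-like, 3 of 6 ensheathing and 2 of 6 cortex and chiasm genes were lower in members in 4 of 4 libraries, and none of these was higher. Perineurial markers lay the other way, with 2 of 6 higher and none lower in 4 of 4 libraries. Their median log2 differences from other glia were 1.30, 2.29, 1.26 and 0.62. Summed, these 6 stood at 1962, 3692, 1622 and 1750 CPM in members and 3856, 4186, 2656 and 4564 CPM in marker-rich members. Perineurial nuclei, taken partly by *Tret1-1*, which is 1 of the 6, had 4558, 4538, 4929 and 2616 CPM. Members were thus not low in perineurial markers, and marker-rich NaAsO2 males stood above perineurial nuclei.

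The members were not uniform. The study splits subperineurial nuclei into a pair of clusters, and its markers for the first only and for the second only (15 genes each) were used to describe single nuclei. At least 2 UMIs of each list were found in 91.2%, 97.4%, 96.0% and 96.9% of members, so most nuclei held RNA of both. Nuclei with at least 1% of their UMIs from second-cluster markers numbered 40, 57, 68 and 42, and their median from first-cluster markers was 14092, 15571, 23408 and 8970 CPM. A further 33, 33, 60 and 6 nuclei had at least 1% from first-cluster and under 1% from second-cluster markers. These made up 28.9%, 28.7% and 34.7% of members in the first 3 libraries and 6.12% in the male NaAsO2 library. Nuclei under 0.5% for both lists numbered 26, 13, 24 and 46, or 22.8%, 11.3%, 13.9% and 46.9% of members. Near the 1% limit for second-cluster markers (0.8% to 1.2%) lay 7, 6, 13 and 3 nuclei. After NaAsO2, male members were thus mostly either low in both lists or high in second-cluster markers. Nuclei with at least 1% from second-cluster markers were 40 of 84, 57 of 97, 68 of 141 and 42 of 51 marker-rich members. Ratios over marker-rich members, above all in males, thus compare different mixes of nuclei. They are chosen by markers that themselves differed after NaAsO2. The part of this mix in the ratios was not tested. Nuclei with at least 1% from first-cluster and under 1% from second-cluster markers had median depths of 2110, 1971, 1913.5 and 6565 UMIs. The male NaAsO2 library held no nucleus under 1766 UMIs, and whether this left out such nuclei was not tested.

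**Figure D3:**
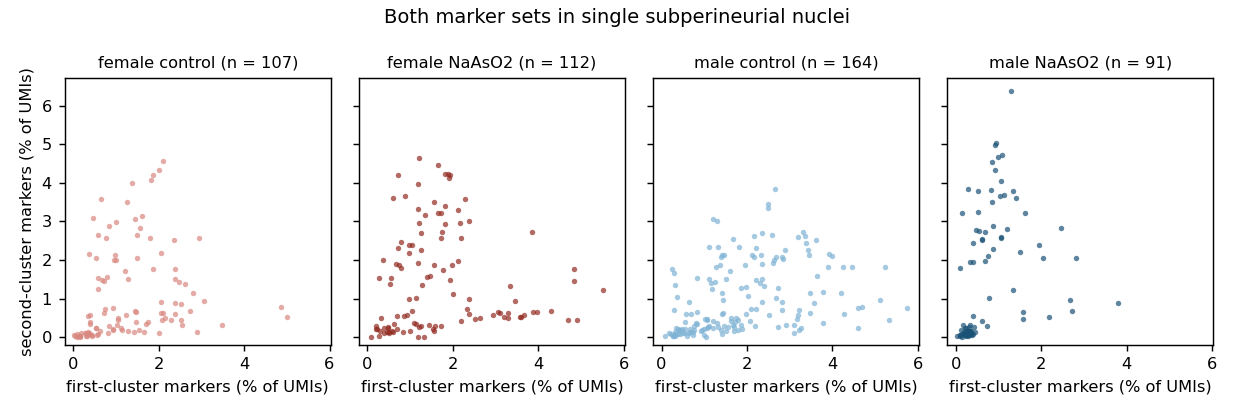
Each point is 1 subperineurial nucleus of up to 20000 UMIs (107, 112, 164 and 91 nuclei), with the percentage of its UMIs from the 15 first-cluster markers on the x axis and from the 15 second-cluster markers on the y axis. The male NaAsO2 panel has few points to the right at low y, which the other panels have, and a dense group near 0. That library alone held no nucleus under 1766 UMIs.

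The first comparison, NaAsO2 against control within each sex, asks which barrier genes differed after arsenic. A gene is called 2-fold higher or lower when its log2 ratio (NaAsO2 over control) reached 1 in size, the counting interval was clear of 0 and it had at least 50 UMIs over both libraries. In females 12.8% of genes were 2-fold higher (468) and 8.25% lower (302). In males 2.11% of 4127 genes were higher (87) and 8.6% lower (355). In marker-rich members 3.13% were higher and 3.06% lower in females (2684 genes), and 4.37% higher and 9.08% lower in males (2654 genes). Far fewer genes were higher in females once the droplets poor in markers were set aside. Over all members the median ratio of all genes was −0.04 in females and −0.11 in males. The 4 neuronal genes stood at 5880, 2838, 4984 and 6224 CPM over all members, and of 8 neuronal markers 5 were 2-fold lower in females and none passed 2-fold in males. The part of neuronal RNA in the ratios over all members was not tested.

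Among insulin and nutrient signalling genes, *Thor* and *InR* were higher after NaAsO2 in both sexes over all members, and *Ilp6* was lower in males. *Thor*, which encodes the translational repressor 4E-BP, had 13, 38, 13 and 61 UMIs in members, or 13.3, 62.7, 12.1 and 55.0 CPM. Its log2 ratio was 2.23 (1.29 to 3.27) in females and 2.18 (1.30 to 3.17) in males. No member held more than 6 of these UMIs, and 8.77%, 22.6%, 6.36% and 29.6% of members had at least 1. In marker-rich members the ratios were 1.12 (0.14 to 2.19) and 3.27 (2.23 to 4.47), while in neurons they were 0.39 and 0.34. *InR*, the insulin receptor, was at 425, 715, 418 and 993 CPM, a ratio of 0.75 (0.55 to 0.95) in females and 1.25 (1.09 to 1.41) in males. Marker-rich members gave 0.15 (−0.09 to 0.39) and 1.29 (1.07 to 1.51) for *InR*, so the female difference was within counting error there. In neurons the *InR* ratios were 0.47 and 1.12. *foxo*, the transcription factor that insulin signalling restrains, was at 89.2, 191, 114 and 150 CPM. Its male ratio was 0.40 (0.05 to 0.75) over all members and 1.36 (0.98 to 1.74) in marker-rich members, against −0.14 in neurons. Its female ratio was 1.10 (0.69 to 1.52) and 0.18 (−0.27 to 0.63). *Ilp6*, an insulin-like peptide made in fat body and glia, was at 72.8, 200, 141 and 43.3 CPM with male ratios of −1.70 (−2.20 to −1.22) over all members, −1.14 (−1.70 to −0.60) in marker-rich members and −1.11 in neurons. Its female ratio of 1.46 (1.02 to 1.90) became −0.16 when every nucleus was scaled to the same total. The clock gene *tim* had 25, 29, 19 and 61 UMIs, with a male ratio of 1.63 (0.87 to 2.46), or 2.59 (1.67 to 3.60) in marker-rich members, and −0.29 in neurons. Of the 16 hormone, growth and clock genes with enough UMIs, 4 were 2-fold higher and 2 lower in females, and 3 higher and 1 lower in males, with medians of −0.02 and 0.48. In marker-rich members none of 13 passed 2-fold in females, and 4 of 15 were higher and 1 lower in males. Summed, the list stood at 5432, 5027, 4905 and 7193 CPM in members and 5746, 5778, 5290 and 6782 CPM in other glia. Perineurial nuclei had 6164, 6027, 4304 and 7487 CPM, and neurons 5171, 5258, 4407 and 5935 CPM. The higher sum in NaAsO2 males was thus shared with these classes. Single genes of this list were set against neurons only.

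**Figure D4:**
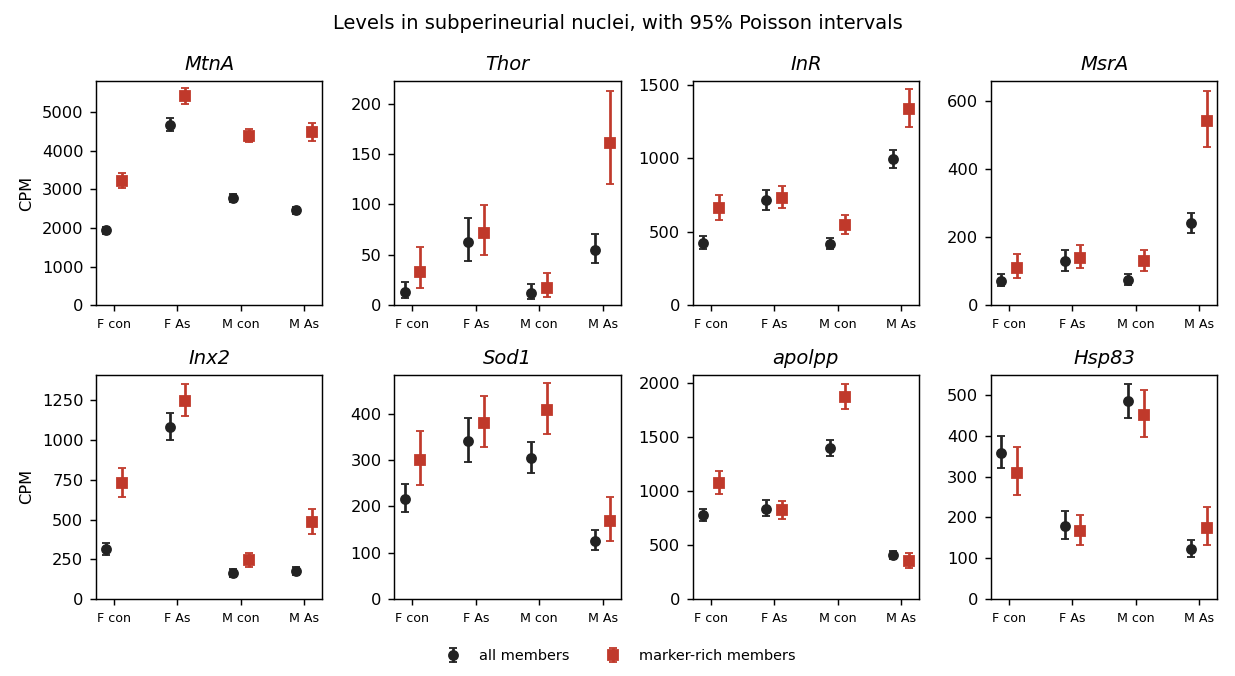
Levels in CPM, with 95% Poisson intervals, of 8 genes in the 4 libraries, over all members (black) and marker-rich members (red). Among marker-rich members *Thor*, *InR* and *MsrA* were highest in the male NaAsO2 library, at 161, 1336 and 541 CPM, and *Sod1* (168 CPM) and *apolpp* (351 CPM) were lowest there.

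Antioxidant and xenobiotic (foreign compound) genes went in opposite directions in the sexes over all members. Of 21 with enough UMIs in females, 9 were 2-fold higher and none lower (*GstE6*, 1.41, *GstD1*, 1.18), with a median of 0.97. Of 22 in males, 1 was higher and 8 lower, with a median of −0.62. In marker-rich females none of 20 passed 2-fold, though 18 lay above 0 (median 0.34). Marker-rich males kept the direction, with 3 of 20 higher, 7 lower and a median of −0.55. Summed, the list stood at 2594, 4791, 3110 and 2353 CPM in members and 2295, 3082, 2869 and 2151 CPM in other glia. Perineurial nuclei had 2188, 2705, 3071 and 1946 CPM, and neurons 1003, 1053, 1233 and 958 CPM. The opposite directions were thus shared with these classes. *Sod1*, the cytosolic superoxide dismutase, was at 216, 342, 304 and 125 CPM. Its ratio in males was −1.28 (−1.57 to −0.99), the same −1.28 (−1.74 to −0.84) in marker-rich members, and −1.20 in neurons. *Sod2*, its mitochondrial counterpart, was at 60.5, 69.3, 111 and 44.2 CPM, with male ratios of −1.33 (−1.84 to −0.84) and −1.56 (−2.54 to −0.68), and −1.59 in neurons. The male difference of both dismutases was thus shared with neurons. *MsrA*, which repairs oxidised methionine, was the exception in males: 71.7, 129, 74.5 and 240 CPM, a ratio of 1.69 (1.32 to 2.06), 2.07 (1.66 to 2.50) in marker-rich members and 1.0 in neurons. *Sesn* (*sestrin*), a stress-induced brake on TOR signalling, was at 84.0, 165, 77.3 and 153 CPM. Its male ratio was 0.99 (0.60 to 1.38), or 1.34 (0.87 to 1.82) in marker-rich members, and 0.27 in neurons. The glutathione transferase gene *GstD1* was at 227, 515, 318 and 165 CPM, higher in females (1.18, 0.93 to 1.44) and lower in males (−0.95, −1.21 to −0.68), and kept both signs in marker-rich members (0.89 and −0.65). The glutathione transferases are a family of similar genes, whose reads could be split between copies.

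Among metal genes *MtnA*, a metallothionein that binds heavy metals, was at 1937, 4674, 2781 and 2460 CPM and was detected in 97.4% to 100% of members of each library. In females its ratio was 1.27 (1.19 to 1.36), or 0.75 (0.65 to 0.85) in marker-rich members and 0.59 in neurons. In males the *MtnA* ratio was −0.18 (−0.25 to −0.10), 0.03 (−0.07 to 0.13) in marker-rich members and 0.08 in neurons. Unexposed males already stood above unexposed females for *MtnA* (control females over males −0.52, −0.61 to −0.44). No UMI of *MtnB* or *MtnC* was found in members. *Fer2LCH*, the ferritin light chain, was at 961, 1513, 1283 and 645 CPM, and its male ratios were −0.99 (−1.12 to −0.86), −1.29 (−1.52 to −1.07) in marker-rich members and −1.05 in neurons. *Tsf1*, the iron carrier transferrin, was at 636, 1411, 1051 and 517 CPM, with 1.15 (1.0 to 1.30) in females and −1.02 (−1.17 to −0.88) in males. Of the metal and arsenite passage genes with enough UMIs, 4 of 9 were 2-fold higher in females and 1 of 8 lower in males, with medians of 0.96 and −0.29. Over all genes 12.8% were 2-fold higher in females and 8.6% lower in males. In marker-rich members none of 8 passed 2-fold in females, and 1 of 6 was higher and 1 lower in males. The gene higher in marker-rich males was *bib* (*big brain*), of the aquaporin family, at 37.9, 116, 75.5 and 108 CPM, with male ratios of 0.52 (0.10 to 0.94) and 1.31 (0.86 to 1.76) and −0.15 in neurons. *bib* was also higher in females, at 1.61 (1.01 to 2.22) and 0.69 (0.06 to 1.35).

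Of 11 lipid genes with enough UMIs in males, 4 were 2-fold lower and none higher, and the same 4 of 10 were lower in marker-rich members, with medians of −0.18 and 0.14. *apolpp*, the precursor of the main hemolymph lipoprotein and known as a fat body product, was at 774, 835, 1396 and 407 CPM. Its male ratio was −1.78 (−1.93 to −1.62), −2.41 (−2.71 to −2.13) in marker-rich members and −1.22 in neurons. *fabp*, a fatty acid binding protein, was at 370, 472, 444 and 129 CPM, with male ratios of −1.78 (−2.06 to −1.51) and −1.05 (−1.39 to −0.73), and −1.74 in neurons. *Npc2a*, a sterol carrier, gave −1.39 (−1.74 to −1.04) and −1.51 (−2.13 to −0.93) in males, with −1.21 in neurons. *NLaz*, a lipocalin, gave −1.53 (−1.95 to −1.13) and −1.10 (−1.60 to −0.62), with −0.64 in neurons. In females all 10 lipid genes with enough UMIs lay above 0 over all members, 2 of them 2-fold higher, with a median of 0.57. In marker-rich females none of 10 passed 2-fold and the median was −0.05.

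Of 18 septate junction genes with enough UMIs in females, 5 were 2-fold higher and none lower, but in marker-rich females this was 1 of 16 (*bou*, 1.03, a Ly6 protein needed for septate junctions), with a median of 0.84 over all and 0.17 over marker-rich members. *bou* (X:6986486-6987188) lies within the span of *ogre*, so its reads may overlap those of *ogre*. Among 17 in males 1 was higher (*Fas3*, 1.50; median of the list 0.05), and in marker-rich males 2 of 13, *Gli* (1.22, 0.70 to 1.74) and *l(2)gl* (1.26, 0.76 to 1.76), the latter a cell polarity gene. Neurons gave −0.16 and 0.25 for these in males. *cora*, a core cytoplasmic junction protein, was at 353, 578, 403 and 256 CPM, 0.27 (0.02 to 0.54) in marker-rich females and −0.28 (−0.55 to −0.02) in marker-rich males. Of 11 moody signalling genes 1 was 2-fold lower in each sex, near the share over all genes (8.25% in females, 8.6% in males). These were *Pka-R2*, a regulatory subunit of protein kinase A, in females (−1.04) and the small GTPase gene *Rho1* in males, at 158, 264, 216 and 107 CPM (−1.01, −1.34 to −0.69). Neither passed 2-fold in marker-rich members, where *Rho1* in males was −0.84 (−1.36 to −0.35).

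Transporter genes were higher in females over all members: 7 of 13 ABC transporters and 9 of 15 solute carriers were 2-fold higher, with 1 and 0 lower and medians of 1.02 and 1.38. In marker-rich females no ABC transporter of 11 passed 2-fold and 3 of 13 solute carriers were higher and 1 lower. In males 1 of 12 ABC transporters and 3 of 14 solute carriers were lower and none higher, against 8.6% of all genes lower. In marker-rich males 1 of 11 ABC transporters was higher and none lower, and 3 of 10 solute carriers were higher and 2 lower. The solute carriers higher in marker-rich females were *CG6126*, *CG5687* and *gb* (*genderblind*), a glial amino acid exchanger. The ratio of *CG6126* was 1.93 over all members and −0.22 with every nucleus scaled to the same total. *gb* had 26, 108, 21 and 32 UMIs, but 63 of the 108 came from 1 nucleus. *CG5687*, a predicted sodium-coupled carrier, had 22, 101, 40 and 41 UMIs, at most 45 in 1 nucleus, with female ratios of 2.89 (2.21 to 3.62) and 2.16 (1.37 to 3.06). In males the amino acid transporter gene *mnd* (*minidiscs*) was at 188, 124, 237 and 94.6 CPM, with −1.32 (−1.66 to −0.99) over all members, −2.52 (−3.33 to −1.79) in marker-rich members and −0.40 in neurons. It was lower in females too, at −0.60 (−1.01 to −0.20) and −1.10 (−1.61 to −0.60). *Oatp74D*, which imports the steroid ecdysone, was higher in both sexes, at 137, 439, 261 and 324 CPM. Its marker-rich ratios were 0.67 (0.35 to 1.01) in females and 1.27 (1.02 to 1.52) in males, against 0.21 and −0.38 in neurons. *CG31689*, an ABC transporter gene, was at 74.8, 152, 101 and 183 CPM, and its male ratio was 0.86 (0.52 to 1.21), or 1.61 (1.26 to 1.98) in marker-rich members. *Tret1-1*, the trehalose transporter, gave 0.37 (0.15 to 0.60) and 1.11 (0.86 to 1.36) in males, but 0.96 (0.71 to 1.21) and −0.27 (−0.52 to −0.01) in females.

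The gap junction genes *ogre* and *Inx2*, neighbours on the X chromosome (X:6973620-6991318 and X:6998672-7004151), encode innexins that couple subperineurial cells. *Inx2* was at 313, 1084, 161 and 175 CPM, a female ratio of 1.79 (1.60 to 2.0) and 0.78 (0.57 to 0.99) in marker-rich members, with −0.35 in neurons. In males its ratio was 0.12 (−0.19 to 0.42), and 0.99 (0.64 to 1.34) in marker-rich members. *ogre* was at 551, 2218, 500 and 440 CPM, with 2.01 (1.86 to 2.15) and 1.01 (0.86 to 1.16) in females. In males *ogre* gave −0.19 (−0.37 to −0.01) over all members and 0.52 (0.33 to 0.72) in marker-rich ones, so its direction there depended on the droplets included. In the female NaAsO2 library 1 nucleus held 576 of the 1344 *ogre* UMIs and 234 of the 657 *Inx2* UMIs. Without the droplets over 20000 UMIs both female ratios were 0.73. *SPARC*, a collagen-binding matrix protein and a first-cluster marker, was at 600, 2607, 403 and 199 CPM, 2.12 (1.98 to 2.26) in females and −1.01 (−1.26 to −0.78) in males. One female NaAsO2 nucleus held 634 of its 1580 UMIs, and with nuclei thinned to 1000 UMIs its female ratio was −0.52. Of the 11 gap junction and matrix genes with enough UMIs in females 9 were 2-fold higher (median 1.79), and of 10 in males 2 were lower (median −0.37). In marker-rich members 5 of 9 were higher in females, and 2 of 9 higher and 1 lower in males, with medians of 1.01 and 0.43. This list shares *SPARC*, *cv-c*, *sog* and *fog* with the markers that define marker-rich members. The solute carrier list shares *CG3168* and *Ncc69* with them, the ABC transporter list *CG10226* and the metal list *Tsf1*.

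Among heat shock and stress kinase genes, *Hsp83*, the fly Hsp90 chaperone, was at 359, 178, 485 and 123 CPM. It was lower in both sexes, at −1.01 (−1.33 to −0.69) in females and −1.98 (−2.27 to −1.71) in males, and at −0.90 and −1.37 in marker-rich members. Neurons gave −0.60 and −2.23. Of 14 such genes in females 1 was higher and 1 lower, and of 15 in males 3 were lower, with medians of 0.01 and −0.21. In marker-rich males 2 of 12 were higher, *puc* (1.08, 0.59 to 1.57), a phosphatase induced by JNK signalling, and *Atf3* (1.01, 0.68 to 1.34), a stress transcription factor, and 2 were lower. Over all members these were at 145, 145, 126 and 173 CPM (*puc*) and 169, 366, 155 and 184 CPM (*Atf3*). No UMI of *Hsp70Aa* was found.

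The 34 study markers were chosen by the study on these libraries, and 30 of them also by cluster, so their ratios are a description of direction and not independent evidence. Over all members 14 of 15 first-cluster markers were 2-fold higher in females and 12 of 15 lower in males, while of the second-cluster markers 11 of 15 were higher in females and 3 of 14 higher in males. Of the 4 markers of both clusters 4 were 2-fold higher in females and 2 lower in males. Without the droplets over 20000 UMIs the medians for first-cluster markers were 0.69 in females and −0.78 in males, and for second-cluster markers 0.47 and 0.59. First-cluster markers thus lay on opposite sides of 0 in the sexes, and the difference between the sexes was not tested. Summed, they stood at 7319, 20552, 11819 and 4818 CPM in members and 2551, 4040, 4168 and 1800 CPM in other glia. Perineurial nuclei had 4798, 7322, 13220 and 2268 CPM, and neurons 835, 941, 1267 and 636 CPM. The directions in each sex were thus the same in these classes and not particular to members. *Cys*, a cystatin-like inhibitor of cysteine proteases, was at 527, 1668, 993 and 251 CPM, with 1.66 (1.51 to 1.82) in females and −1.99 (−2.18 to −1.80) in males. *CG12256* (370, 350, 1306 and 137 CPM) was lower in males at −3.25 (−3.50 to −3.01). Its female ratio was −0.08 over all members and −0.87 without the deep droplets. Of the second-cluster markers *T48*, a transmembrane protein known from epithelial folding, was at 343, 911, 371 and 640 CPM and higher in both sexes, at 1.41 (1.21 to 1.61) and 0.79 (0.61 to 0.97). Without deep droplets the *T48* ratio was 0.80 in females and 1.115 in males. *how*, an RNA-binding splicing regulator, was at 160, 340, 82.0 and 202 CPM, with 1.09 (0.78 to 1.40) and 1.30 (0.94 to 1.67). The *how* ratio without deep droplets was 0.14 in females and 1.67 in males.

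**Figure D5:**
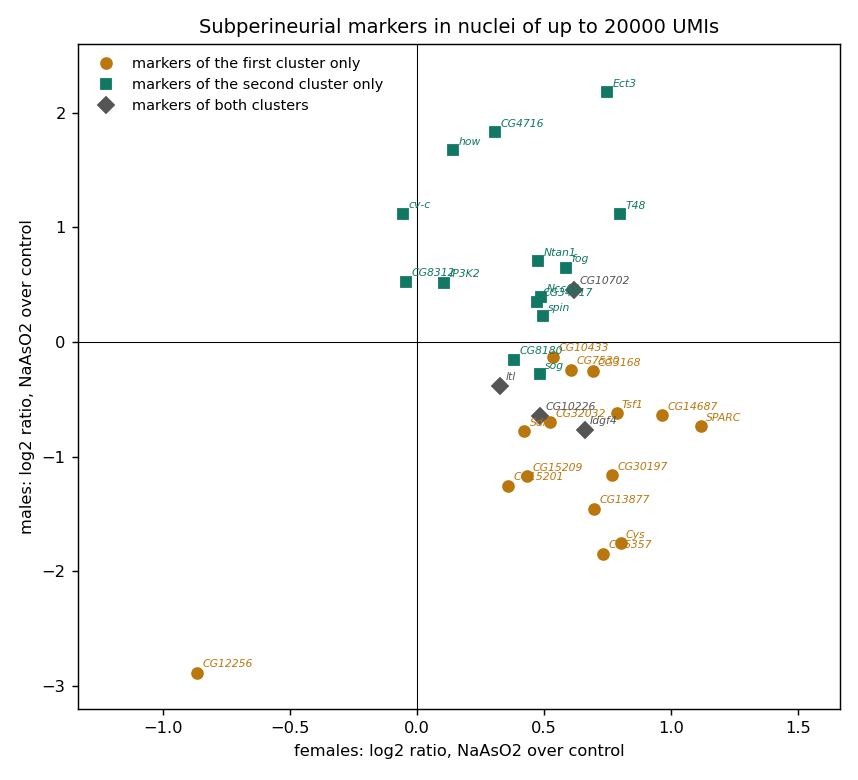
Log2 ratio of NaAsO2 over control in females (x axis) and males (y axis) of the study's subperineurial markers, in members of up to 20000 UMIs, 1 point per gene with at least 50 UMIs in each sex. First-cluster markers lie below 0 on the male axis and most second-cluster markers above it, while most markers lie right of 0 on the female axis. *CG12256* is the first-cluster marker left of 0.

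By size, the genes with counting intervals clear of 0 in both sexes were 130 higher in both, 182 lower in both, 418 higher in females and lower in males, and 327 the reverse, of 3549 genes. In marker-rich members these were 75, 133, 168 and 112 of 2472. The top genes higher in both were *CG9691* and *CG9689*, neighbours on the X chromosome (X:9884442-9885044 and X:9881953-9883670), then *Thor*, *CG4716* and *CG12239*. *CG9691* was at 146, 508, 24.2 and 245 CPM, with 1.80 (1.51 to 2.10) in females and 3.34 (2.76 to 3.98) in males, and 0.66 and 3.49 in marker-rich members. *CG9689* was at 129, 408, 26.1 and 102 CPM, with 1.66 (1.34 to 1.98) and 1.96 (1.36 to 2.62), and 0.54 and 2.55 in marker-rich members. Both were patchy: *CG9691* had a UMI in 19.3%, 17.4%, 4.62% and 33.7% of members and *CG9689* in 19.3%, 27.0%, 2.89% and 20.4%. Single nuclei held 45 of 126, 69 of 247, 24 of 28 and 51 of 113 *CG9689* UMIs. The *CG9689* ratios in females and males were 0.38 and 1.55 in other glia and 0.18 and 1.72 in neurons. For *CG12239* a single female NaAsO2 nucleus held 516 of 545 UMIs, and for *CG4716* 497 of 784. In males the *CG12239* ratio was −1.74 in marker-rich members and −1.52 with at least 3 UMIs over the rule's genes, and in females the *CG4716* ratio was −1.04 with every nucleus scaled to the same total and −0.90 thinned, so neither was higher in both sexes throughout.

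The top genes lower in both were *Obp44a*, *sNPF*, *jdp*, *Dh44* and *Hsp83*. *Obp44a*, an odorant-binding protein abundant in other brain glia, was at 2556, 1127, 6910 and 1651 CPM, with −1.18 (−1.31 to −1.06) and −2.06 (−2.14 to −1.99). Of its 2494 UMIs in control females, 1035 lay in a single nucleus. In marker-rich females the *Obp44a* ratio was −0.51 (−0.67 to −0.35), and in marker-rich males −4.95 (−5.34 to −4.59). Without the deep droplets it was −0.54 in females and −3.86 in males. Other glia were higher after NaAsO2 in females, at 2472 CPM in the control and 3315 CPM in the NaAsO2 library. Neurons gave 602 and 431 CPM there. In males other glia were at 8551 CPM in the control and 616 CPM in the NaAsO2 library, with 1486 and 186 CPM in neurons. Whether *Obp44a* RNA in members came from other cells was not tested. *sNPF* and *Dh44* encode neuropeptides and *jdp* a DnaJ-domain protein. *sNPF* was at 636, 221, 440 and 201 CPM and *Dh44* at 74.8, 26.4, 59.6 and 16.2 CPM, against 701, 782, 799 and 488 CPM and 145, 115, 136 and 83.6 CPM in neurons. In marker-rich members the ratios of *sNPF* were −0.74 and −1.65 and those of *Dh44* −2.11 and −1.01. One control female nucleus held 724 of the 1228 *jdp* UMIs.

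Genes higher in females and lower in males were led by *Cys*, *Bbd* (*bombardier*, of the Toll immune response), *Ppn* (*papilin*, a matrix protein made by blood cells), *CG5390* and *CG13877*. *CG13877* was at 246, 685, 649 and 177 CPM and spread over many nuclei (49.0% to 75.1% of members), with 1.48 (1.24 to 1.71) and −1.88 (−2.11 to −1.65), and 0.70 and −1.46 without droplets over 20000 UMIs. *CG5390* was at 88.1, 343, 114 and 29.7 CPM, with 1.96 (1.59 to 2.34) and −1.93 (−2.54 to −1.37), and 0.85 and −1.12 in marker-rich members. *Cys* and *CG13877* are also first-cluster markers. *Bbd* and *Ppn* rested on single nuclei, 538 of 870 *Bbd* UMIs in the female NaAsO2 library and 72 of 83 *Ppn* UMIs in the male control library. The plasmatocyte gene *Hml* followed *Ppn*, with 75 of its 78 male control UMIs in 1 nucleus. The 6 plasmatocyte markers summed to 47.1, 236, 236 and 59.5 CPM over members and to 89.8, 240, 252 and 94.7 CPM over neurons. The reverse pattern was led by the neuronal genes *acj6*, *SoxN* and *Nlg2*, by *fkh* and by *CG42750*. Their male ratios were 2.75, 1.38, 1.02, 1.87 and 1.89 in that order over all members. Without droplets over 20000 UMIs they were 0.46 for *acj6*, 0.00 for *SoxN*, −0.03 for *Nlg2*, −1.0 for *fkh* and 0.33 for *CG42750*, so none was 2-fold higher in males there.

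Between the sexes without arsenic, 2.48% of 4111 genes were 2-fold higher in control females and 2.97% in control males. *mgl* (*megalin*), an endocytic lipoprotein receptor, was at 3209 CPM in control females and 816 CPM in control males, a ratio of 1.98 (1.87 to 2.08), and 2.60 in marker-rich members. Other glia gave 2204 and 2169 CPM and neurons 583 and 469 CPM for *mgl*, so the female excess was much smaller there. *mgl* stayed high in NaAsO2 females (5287 CPM) and low in NaAsO2 males (952 CPM). *Inx2* was also higher in control females, at 0.96 (0.68 to 1.23), as was *JhI-21*, an amino acid transporter gene, at 63.5 and 15.8 CPM (2.0, 1.21 to 2.87). The cytochrome P450 gene *Cyp311a1* had 60 UMIs in control females and 4 in control males, a ratio of 4.04 (2.61 to 5.97), and 146 and 24 UMIs after NaAsO2. *CG12256* and *CG13877* were lower in control females, at −1.82 (−1.99 to −1.65) and −1.40 (−1.62 to −1.19). The largest sex differences were in genes that label sex in most cells. *lncRNA:roX1* and *lncRNA:roX2*, the RNAs of male dosage compensation, stood at 66.6 and 4.10 CPM in control females and 11954 and 3650 CPM in control males. The yolk protein genes *Yp1*, *Yp2* and *Yp3*, known products of female fat body, had 116, 70 and 127 UMIs in control females and 1, 0 and 0 in control males. In NaAsO2 females they had 12, 5 and 11 UMIs, but with nuclei that hold *pippin* taken in, *Yp1* was higher there than in control females (1.48). The stress peptide genes *TotA* and *TotC* were higher in control males (115 and 87 UMIs against 5 and 1). Neurons gave a like pattern for *TotA* (4.68 CPM in control females, 430 CPM in control males) and for *Yp3* (83.9 and 0.718 CPM). *pre-rRNA:CR45845* had 89 UMIs in control females and 1 in control males. *NPF* in control females and *AstA* in control males, both neuropeptide genes, rested on 1 nucleus each (126 of 220 and 142 of 172 UMIs).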

How the data were processed

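Nuclei from brains of CSB flies were sequenced in 4 droplet libraries, 1 per sex and treatment. Reads were aligned by the authors with Cell Ranger against fly genome release 6 (version 3.1 in the methods and labels, 7.0.1 in the matrix header), and the deposited values are raw UMI counts per gene and nucleus. The study does not state a removal of doublets.

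Counts were summed over the members of each library in Python (3.11.15, with pandas 2.3.3, NumPy 2.4.6 and SciPy 1.17.1) and scaled to CPM of the members' total. Exact Poisson intervals were given for levels, exact conditional binomial intervals for log2 ratios and exact (Clopper-Pearson) binomial intervals for shares, all at 95%. The scripts were tested on simulated data. Of 17772 genes, 17711 matched RefSeq by identifier. No sequence was printed.

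Other glia had at least 2 UMIs over *repo*, *loco* and *nrv2* and neurons at least 2 over *elav*, *nSyb*, *brp* and *Syt1* with no glial UMI, both without *Mdr65* or *moody*. Perineurial nuclei had *pippin*, at least 2 UMIs over *pippin* and *Tret1-1*, a glial UMI and no *Mdr65*. Named genes came from 13 lists of barrier and response genes and, by size, the 5 genes per pattern with the interval bound farthest from 0. *CG5687*, *gb*, *bou*, *JhI-21*, *Sod2* and *Col4a1* were picked from those lists, and *Hml* and *mol* besides, after their values were seen. Members, lists and the deep and marker-rich subsets were chosen with earlier results of these data known, the subsets after seeing the data. The study's differential tests over single nuclei were not used. Alternatives tried covered scaling, depth, the rule's thresholds and the UMI minimum.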

Additional observations from a re-analysis of the deposited data

Results flagged for a closer look

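In 10 genes chosen by size, the NaAsO2 ratio lay above 0 in one sex and below 0 in the other, and with 1 library per group the difference was not tested. The log2 ratio in females minus that in males was 3.65 for *Cys*, 4.36 for *Bbd*, 5.37 for *Ppn*, 3.90 for *CG5390* and 3.35 for *CG13877*, all higher in females and lower in males. The opposite held for *acj6* (−4.36), *SoxN* (−2.77), *CG42750* (−3.10), *fkh* (−3.72) and *Nlg2* (−2.16). Without droplets over 20000 UMIs *Cys*, *CG5390* and *CG13877* kept these signs, at 0.80, 0.77 and 0.70 in females and −1.76, −1.54 and −1.46 in males. The opposite group did not hold there in males past 2-fold, at 0.46 for *acj6*, 0.00 for *SoxN*, 0.33 for *CG42750*, −1.0 for *fkh* and −0.03 for *Nlg2*, and in marker-rich males *acj6*, *CG42750* and *Nlg2* lay below 0, at −0.61, −0.38 and −0.47.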

How the results depend on the processing

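Over the 13 alternatives, 1797 values stayed within their counting interval or their fold limit, 966 moved and 32, all past 2-fold in the report, turned direction. The cause was not tested except where the setting itself fixes it. Shares of nuclei, in the order of the report, were 0.258%, 0.267%, 0.537% and 0.200% with nuclei thinned to 1000 UMIs. Among nuclei of at least 1766 UMIs those of the first 3 libraries were 0.744%, 1.03% and 1.70%. With at least 3 UMIs over *Mdr65* and *moody* they were 0.422%, 0.359%, 0.893% and 0.610%. With the *pippin* condition dropped they were 1.21% (1.06 to 1.38), 0.734% (0.633 to 0.847), 1.44% (1.26 to 1.65) and 1.14% (0.941 to 1.37). The female intervals then did not overlap, while the male ones did, as did those of the control libraries. Without nuclei of 2 or more neuronal UMIs the shares were 0.0469%, 0.0553%, 0.0739% and 0.0100%. Marker-rich members alone gave 0.438%, 0.947% and 0.510% in control females, control males and NaAsO2 males.

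Genes at least 2-fold apart numbered 770 in females, 442 in males and 224 between the controls. Without scaling for depth there were 1443, 1345 and 417. With every nucleus scaled to the same total there were 314 in females and 376 between the controls, and with nuclei thinned 17, 71 and 36. With a minimum of 20 UMIs there were 726 in males and 424 between the controls, and with 200 UMIs 346, 142 and 67. Without droplets over 20000 UMIs there were 121, 241 and 146, and in marker-rich members 166 in females. Genes higher than in other glia in 4 of 4 libraries numbered 163, against 285 without the deep droplets and 339 in marker-rich members. Genes lower there numbered 76, against 44 without the deep droplets. Both of these subsets were added after seeing the data, and the marker-rich subset is defined by the 34 markers, so it bears on nothing said of them.

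Of the log2 ratios past 2-fold over all members, these turned direction. With every nucleus scaled to the same total, the female ratios of *Pka-R2*, *CG6126*, *Ilp6*, *CG4716*, *Ect3* and *ltl* were 0.013, −0.22, −0.16, −1.04, −0.43 and −0.0038, that of *fkh* in males was −0.39 and that of *jdp* between the controls −0.083. Thinned, the female ratios of *CG10226*, *SPARC*, *CG4716*, *CG10702*, *ltl* and *Sdr* were −0.21, −0.52, −0.90, −0.0055, −0.67 and −0.081, the male ones of *Idgf4* and *CG42750* 0.16 and −0.21, and that of *jdp* between the controls −0.51. In marker-rich members *CG31689* was −0.048 in females, *CG12239*, *acj6*, *CG42750* and *Nlg2* were −1.74, −0.61, −0.38 and −0.47 in males, and *jdp* and *acj6* were −0.16 and −0.11 between the controls. Without the deep droplets *Nlg2* and *AstA* were −0.031 and 0.16 in males. With at least 3 UMIs over the rule's genes *CG12239* was −1.52 in males. With the *pippin* condition dropped *Dh44*, *Yp1*, *Yp2* and *Yp3* were 0.16, 1.48, 0.90 and 0.25 in females and *Col4a1* was 0.10 between the controls. Ratios under 2-fold over all members were not counted here, such as *Tret1-1* in females (0.96, and −0.27 in marker-rich members) and *ogre* in males (−0.19 and 0.52), nor was *fkh* in males without the deep droplets (−1.0), which had under 50 UMIs there.

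Members without neuronal UMIs were too few for ratios (fewer than 20 per library). With 1 library per group, no replicate was left out. No paired analysis was possible because each group has 1 library. Counting intervals leave out differences between flies and between nuclei.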

Other observations

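*mol*, a maturation factor of the dual oxidase that makes hydrogen peroxide, was chosen after its values were seen. It stood at 19.5, 119, 37.3 and 70.3 CPM, with log2 ratios of 2.61 in females and 0.92 in males. In marker-rich members the ratios were 1.59 and 1.86. Several genes of the report were spread over many nuclei: *mnd*, *Oatp74D*, *Gli* and *CG31689* had a UMI in 26.5% to 42.8%, 36.8% to 49.0%, 24.9% to 40.0% and 29.8% to 53.1% of members per library.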
